A study of Macaca fascicularis with 16 samples.

Results

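RBFOX1 and 9 other RNA-binding proteins that regulate alternative splicing in smooth muscle (RBFOX2, RBFOX3, PTBP1, PTBP2, MBNL1, QKI, CELF2, RBPMS and RBPMS2) were described across 4 regions of the aorta. The genes were chosen by symbol: they are the rows of the count table whose NCBI GeneID carries one of these 10 names in the cynomolgus monkey, and all 10 had a row among the 32846 rows of the table. RBFOX1 was chosen on its levels in these same libraries, so its regional pattern is given as a description with no test, and the other 9 accompany it as regulators of the same process. Of the 10 genes, 9 had counts and passed the filter on low counts that left 15926 genes for testing.

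The data are RNA sequencing libraries of aorta of cynomolgus monkeys (Macaca fascicularis) that the labels call normal and young and whose treatment label is Baseline. There were 16 libraries, 4 each from the infrarenal, suprarenal, descending and ascending regions, and the labels name no genetic change or drug. The libraries are of tissue, so fewer cells of a type and less RNA per cell cannot be told apart. The labels do not say which libraries came from the same animal, and p-values measure only the spread between these libraries.

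Alternative splicing joins different exons of a gene into different mRNAs, and RNA-binding proteins decide which exons are kept by binding beside them in the unspliced transcript. In differentiated smooth muscle, a small set of such proteins gives cytoskeletal and adhesion genes their muscle-type exons, while PTBP1 represses some of these exons. RBFOX proteins bind one short RNA element and as a rule promote an exon that lies upstream of it and repress one that lies downstream. The counts here are totals per gene. They do not show which exons a transcript held, so splicing itself was not measured.

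Library totals ran from 14402824 to 17630057 counts in the infrarenal region, from 14649689 to 21407514 in the suprarenal, from 15953945 to 17750133 in the descending and from 15547002 to 16509749 in the ascending region. All 10 smooth muscle markers on the list used (ACTA2, MYH11 and others) were present in each region, with a summed level between 22173 and 96352 CPM (counts per 1000000 counts of the library, scaled with TMM factors). The lowest sums, 22173 and 26792 CPM, were those of suprarenal replicate 3 and ascending replicate 4, against 32062 CPM or more in the other libraries. Their summed endothelial markers, 3212 and 1892 CPM, were the highest of their regions. The highest smooth muscle sum, 96352 CPM, was that of infrarenal replicate 1, against 46292 CPM or less in the other libraries. The part of tissue make-up in the levels of the regulators was not tested. One library stood apart in its scaling: infrarenal replicate 1 had a TMM factor of 0.736, against 0.977 to 1.08 in the other 15. In it, 77 ribosomal protein genes were on average 1.56 higher on the log2 scale than in the other 3 infrarenal libraries, and 20 genes with very long transcripts were on average 1.30 lower (a log2 difference of -1.30).

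RBFOX1 (GeneID 101866148), an RBFOX protein best known from neurons, heart and skeletal muscle, was all but missing from the infrarenal aorta and present in the other 3 regions, with levels that stepped up toward the heart. The infrarenal libraries held 0, 0, 3 and 3 counts of RBFOX1. The suprarenal libraries held 294, 29, 145 and 73 counts, the descending 331, 325, 780 and 563, and the ascending 1040, 1036, 853 and 248 (replicates 1 to 4). The infrarenal counts were so few that 3 counts, the limit that a count of 0 allows, were worth 0.143 to 0.231 CPM in the 16 libraries.

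In CPM, RBFOX1 stood at 0, 0, 0.197 and 0.170 in the infrarenal libraries. It stood at 18.2, 1.39, 9.20 and 4.31 CPM in the suprarenal, at 20.2, 19.6, 47.3 and 31.2 in the descending and at 65.2, 63.9, 51.6 and 14.97 in the ascending libraries. In these values the infrarenal libraries lay below each of the other 12, and the suprarenal libraries lay below all descending ones, though suprarenal replicate 1 (18.2 CPM) and descending replicate 2 (19.6 CPM) almost met. Descending and ascending libraries overlapped, because ascending replicate 4 was below the descending range while its 3 companions were above it.

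Means of RBFOX1 were 0.0916 ± 0.106 CPM (infrarenal), 8.27 ± 7.35 (suprarenal), 29.6 ± 13.0 (descending) and 48.9 ± 23.4 CPM (ascending; SD, n = 4 each). Without ascending replicate 4 the ascending mean was 60.2 ± 7.48 CPM (SD, n = 3). The spread of RBFOX1 within a region was wide in the 3 regions that held it.

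The fitted log2 difference of RBFOX1 between the infrarenal region and the mean of the other 3 was -7.79 (SE 0.93, 95% interval -9.77 to -5.82), a size that depends on how a fit treats counts near 0. The summed counts, scaled for library size, give the ratio directly, with intervals that cover counting error only. The infrarenal libraries held 6 RBFOX1 counts in all, against 541 in the suprarenal libraries, an excess of 80.8-fold in the suprarenal region (95% exact interval 36.9 to 221). The excess was 309-fold in the descending (141 to 842) and 507-fold in the ascending region (233 to 1383), where the summed counts were 1999 and 3177. Between neighbouring regions the log2 difference of RBFOX1 was -6.32 for infrarenal against suprarenal (95% interval -8.36 to -4.28), -1.84 for suprarenal against descending (-3.18 to -0.50) and -0.73 for descending against ascending (-2.02 to 0.57). These intervals describe the spread of the values that chose RBFOX1 and are not read as tests.

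**Figure D1:**
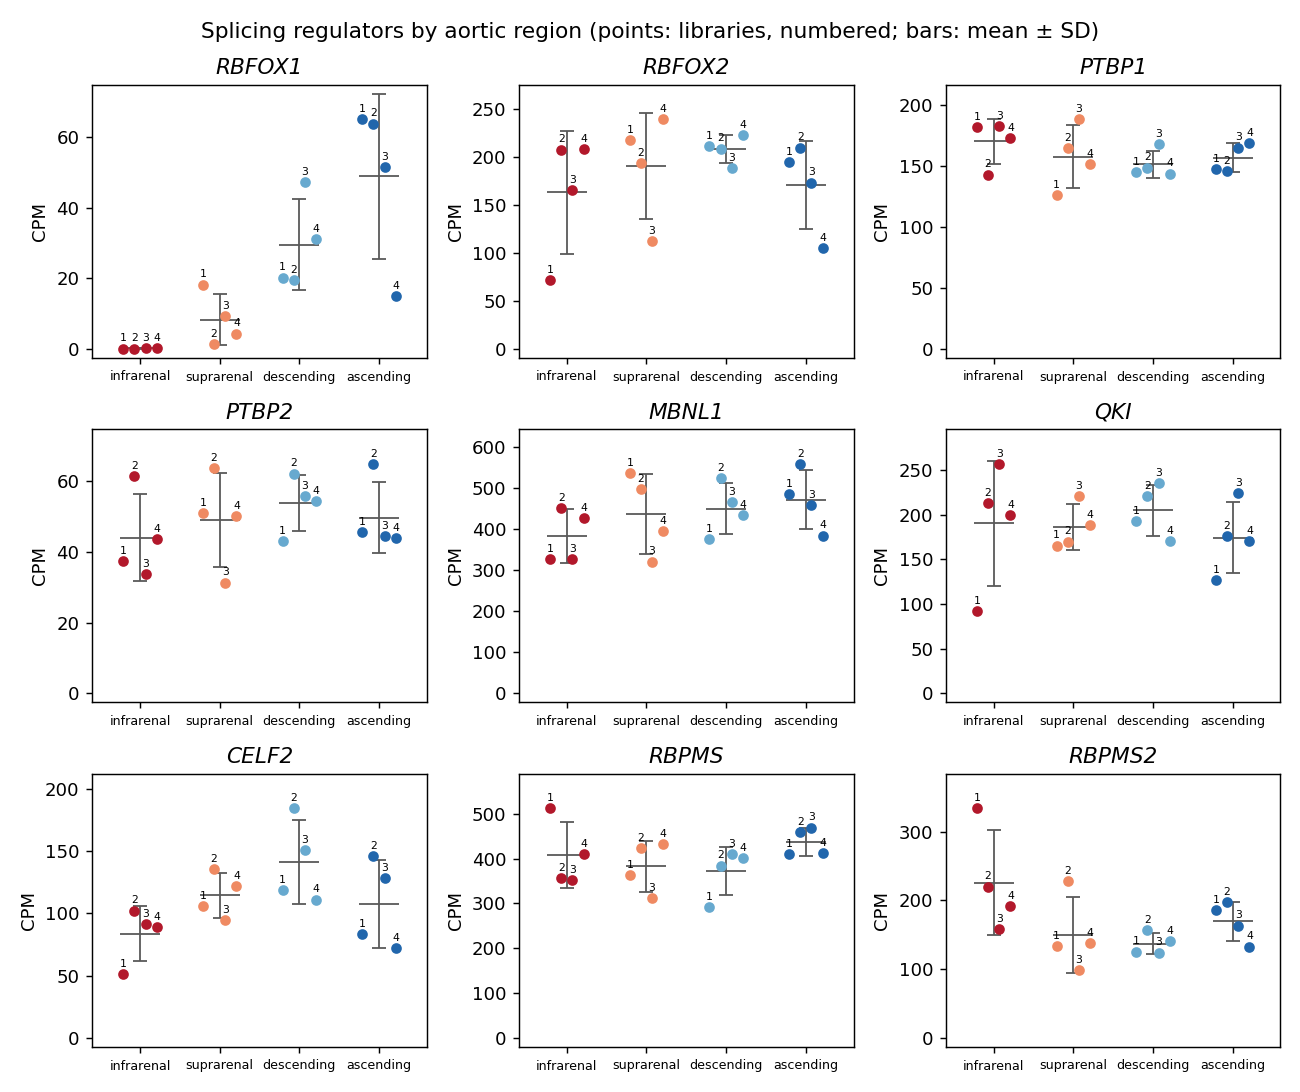
Level of each of the 9 detected splicing regulators (vertical axis, CPM, from 0) in the infrarenal, suprarenal, descending and ascending libraries; points are libraries with their replicate numbers, the horizontal bars are means and the error bars SD (n = 4). RBFOX1 is at or below 0.197 CPM in the 4 infrarenal libraries and at 1.39 CPM or more in the other 12, while the other 8 genes overlap between infrarenal libraries and the rest.

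RBFOX2 (GeneID 102123360), the widely expressed RBFOX protein, was present in all 16 libraries and did not follow RBFOX1. RBFOX2 stood at 71.8, 207, 165 and 208 CPM in the infrarenal libraries, at 217, 193, 112 and 239 in the suprarenal, at 211, 208, 188 and 223 in the descending and at 194, 209, 173 and 105 CPM in the ascending libraries. The 4 regions overlapped, and the 3 low values were those of infrarenal replicate 1, ascending replicate 4 and suprarenal replicate 3. The log2 difference of RBFOX2 between the infrarenal region and the rest was -0.21 (95% interval -0.75 to 0.32), and without infrarenal replicate 1 it was 0.03. RBFOX3 (GeneID 101867210), whose protein is the nuclear antigen NeuN of mature neurons, had 0 counts in all 16 libraries.

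Within the family, the balance of counts moved with the region. RBFOX1 made up 0.0502% ± 0.0599 of the counts of RBFOX1 and RBFOX2 together in infrarenal libraries, 4.45% ± 3.73 in suprarenal ones, 12.4% ± 5.40 in descending ones and 20.99% ± 5.74 in ascending ones (SD, n = 4 each). These shares are of raw counts with no correction for transcript length, so they compare libraries and not the abundance of one protein's mRNA with the other's. The share removes the scaling between libraries, and ascending replicate 4, low for both genes, had a share of 12.5%, inside the descending range of 8.58% to 20.1%.

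**Figure D2:**
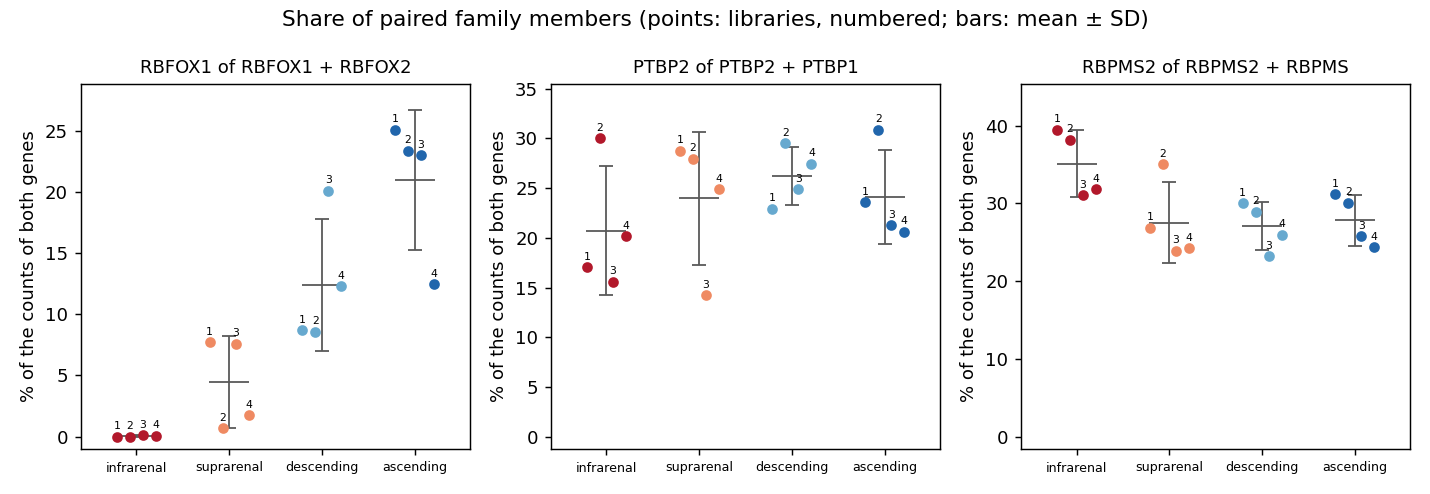
Share of RBFOX1, PTBP2 and RBPMS2 (vertical axis, % of the raw counts of the gene and its paralog together) by region; points are libraries with replicate numbers, bars are mean ± SD (n = 4). The RBFOX1 share runs from at most 0.119% in infrarenal libraries to 12.5% or more in ascending ones, while the PTBP2 shares overlap between all regions and the infrarenal RBPMS2 shares overlap with the suprarenal and ascending but not the descending ones.

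PTBP1 (GeneID 102132118), the repressor of many muscle and neuronal exons, was the steadiest of the 9 genes, with 126 to 188 CPM over the 16 libraries. Its means were 170 ± 18.6 CPM (infrarenal), 157 ± 25.8 (suprarenal), 151 ± 11.2 (descending) and 156 ± 11.9 CPM (ascending; SD, n = 4 each). The log2 difference of PTBP1 between the infrarenal region and the rest was 0.13 (95% interval -0.11 to 0.37). PTBP2 (GeneID 101865613), its paralog known mainly from neurons, stood at 37.4, 61.3, 33.7 and 43.6 CPM in the infrarenal libraries, at 51.0, 63.8, 31.3 and 50.1 in the suprarenal, at 43.1, 62.1, 55.7 and 54.4 in the descending and at 45.5, 64.9, 44.6 and 43.8 CPM in the ascending libraries. Replicate 2 was the highest PTBP2 library in each of the 4 regions, and the regions overlapped. PTBP2 differed by -0.21 on the log2 scale between the infrarenal region and the rest (95% interval -0.61 to 0.19), and its share of the counts of both PTBP genes was 20.7% ± 6.51 (infrarenal), 23.98% ± 6.69 (suprarenal), 26.2% ± 2.88 (descending) and 24.1% ± 4.70 (ascending; SD, n = 4 each).

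MBNL1 (GeneID 102131835), which drives the adult exon pattern of skeletal and heart muscle and is sequestered in myotonic dystrophy, averaged 383 ± 65.3 CPM (infrarenal), 437 ± 97.7 (suprarenal), 450 ± 62.3 (descending) and 472 ± 72.2 CPM (ascending; SD, n = 4 each). The means of MBNL1 had the same order as those of RBFOX1, but the steps were inside the spread: the log2 difference between the infrarenal region and the rest was -0.24 (95% interval -0.58 to 0.09). MBNL1 moved with PTBP2 from library to library rather than with the region. Their log2 CPM had a Pearson r of 0.85 over 16 libraries, and 0.86 once each region's mean was removed, in libraries that share depth, scaling and replicate numbers. PTBP1 ran against both, with r of -0.69 to MBNL1 and -0.64 to PTBP2 over the same 16 libraries. MBNL1 and PTBP2 are named because they were the most correlated pair of the detected regulators. Other pairs also moved together or apart, such as RBFOX2 with CELF2 (r 0.72) and with PTBP1 (-0.68).

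CELF2 (GeneID 102143334), which antagonizes MBNL proteins on many muscle exons, had the lowest mean in the infrarenal region. Its libraries stood at 51.4, 102, 91.3 and 89.0 CPM in the infrarenal, at 106, 136, 94.5 and 122 in the suprarenal, at 119, 185, 151 and 111 in the descending and at 83.1, 146, 129 and 71.9 CPM in the ascending region. The 4 infrarenal libraries all lay below the descending range, but they overlapped with the suprarenal and ascending ones. The share of all genes whose infrarenal and descending ranges lie apart was not computed, so nothing is read from this gap. The log2 difference of CELF2 between the infrarenal region and the rest was -0.53 (SE 0.21, 95% interval -0.98 to -0.07), and without infrarenal replicate 1 it was -0.35. QKI (GeneID 102126515), an RNA-binding protein of the STAR family that regulates muscle splicing and circular RNA formation, stood at 92.0, 213, 257 and 199 CPM in the infrarenal libraries and between 127 and 235 CPM in the other 12. Both the lowest and the highest QKI library were infrarenal, and the log2 difference from the rest was 0.02 (95% interval -0.42 to 0.46), or 0.25 without infrarenal replicate 1.

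RBPMS2 (GeneID 102146828), known for its part in smooth muscle development of the gut, had its highest mean in the infrarenal region, opposite in direction to RBFOX1. RBPMS2 stood at 334, 220, 158 and 192 CPM in the infrarenal libraries, at 134, 228, 97.9 and 138 in the suprarenal, at 125, 157, 124 and 141 in the descending and at 186, 198, 163 and 133 CPM in the ascending libraries. The 4 infrarenal libraries were just above the descending range (lowest infrarenal 158, highest descending 157 CPM), and they overlapped with the suprarenal and ascending libraries. As for CELF2, no share over all genes was computed for this gap, and nothing is read from it. The log2 difference of RBPMS2 was 0.58 between the infrarenal region and the rest (SE 0.20, 95% interval 0.15 to 1.00) and 0.60 against the suprarenal region (0.06 to 1.14). Without infrarenal replicate 1 these were 0.33 and 0.35, and without that library, suprarenal replicate 3 and ascending replicate 4 they were 0.24 and 0.18.

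RBPMS (GeneID 102131435), described in rat as a master regulator of the splicing programme of contractile smooth muscle, averaged 408 ± 74.5 CPM (infrarenal), 383 ± 56.6 (suprarenal), 372 ± 54.0 (descending) and 438 ± 31.0 CPM (ascending; SD, n = 4 each). RBPMS differed by 0.04 on the log2 scale between the infrarenal region and the rest (95% interval -0.24 to 0.33), or by -0.09 without infrarenal replicate 1. Its descending libraries, at 292, 384, 409.5 and 401 CPM, all lay below the ascending ones, at 410.1, 459, 469 and 412 CPM, by a gap that was narrow beside the spread, and the log2 difference was -0.24 (-0.59 to 0.11). RBPMS2 made up 35.1% ± 4.33 of the counts of both RBPMS genes in infrarenal libraries, 27.5% ± 5.17 in suprarenal ones, 27.1% ± 3.06 in descending ones and 27.9% ± 3.28 in ascending ones (SD, n = 4 each). The lowest infrarenal share, 31.0%, lay above the descending maximum of 30.0% but below the highest suprarenal (35.0%) and ascending (31.2%) shares. How often such a gap arises for paralogs in general was not examined.

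**Figure D3:**
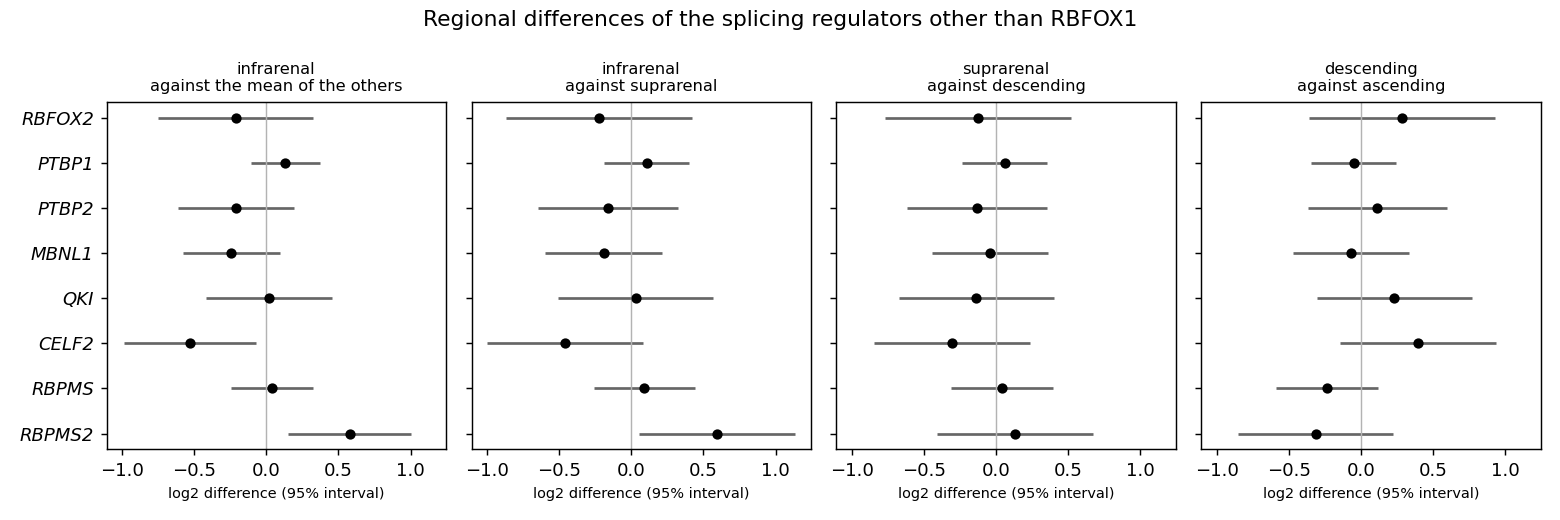
Fitted log2 differences (horizontal axis) of the 8 detected regulators other than RBFOX1 for infrarenal against the mean of the others and for each pair of neighbouring regions; points are estimates from 16 libraries and lines are 95% intervals. Only CELF2 (-0.53) and RBPMS2 (0.58) have intervals clear of 0 for the infrarenal region against the others, and only RBPMS2 (0.60) has one for infrarenal against suprarenal.

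Over all genes tested, edgeR's quasi-likelihood F test with Benjamini-Hochberg adjustment called 2.02% of genes for any difference among the 4 regions and 2.98% for the infrarenal region against the other 3, at an adjusted p under 0.05. Of the 9 detected regulators, RBFOX1 alone was called in each. For infrarenal against suprarenal 0.201% of genes were called and RBFOX1 was the 1 member among them, a call that was not made when infrarenal replicate 2 or 4 was left out. For suprarenal against descending 0% of genes and 0 members were called by edgeR, with 264 genes at an unadjusted p under 0.05 and 0 genes called by DESeq2. For descending against ascending 0.113% of genes were called, with 0 members called by edgeR or by DESeq2. Since RBFOX1 was picked from such results, nothing is read from these counts. Libraries of the infrarenal region did not overlap with the rest for 1.38% of genes and for 1 member, RBFOX1. Between neighbours the ranges were apart for 2.43% of genes (infrarenal against suprarenal) and 1.8% (suprarenal against descending), with RBFOX1 again the 1 member in each, and for 11.8% (descending against ascending), where RBPMS was the 1 member.

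The median log2 difference of the 9 regulators between the infrarenal region and the rest was -0.21, against 0.03 over all genes tested. For the neighbouring pairs the medians of the 9 were -0.16, -0.13 and -0.05 from infrarenal against suprarenal to descending against ascending, and those over all genes tested were -0.0034, 0.01 and -0.0076 in the same order. Apart from RBFOX1, the largest fitted difference of any detected regulator in these contrasts was the 0.60 of RBPMS2.

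Several regulators moved with infrarenal replicate 1, the library that stood apart in its scaling and had the highest sum of smooth muscle markers. In infrarenal replicate 1, RBFOX2 was at 37.1% of its mean in the other 3 infrarenal libraries, QKI at 41.2% and CELF2 at 54.6%. RBPMS2 was at 176% and RBPMS at 137% of theirs. PTBP1, PTBP2 and MBNL1 in that library were within 0.29 of the others on the log2 scale, where the middle 50% of all genes tested ran from -0.88 to 0.68. Over all 16 libraries, the mean centred level of the 20 very long transcripts had a Pearson r of 0.87 with RBFOX2, 0.81 with QKI and 0.77 with CELF2. Without infrarenal replicate 1 these were 0.71, 0.53 and 0.57 over 15 libraries, while that of RBFOX1 was 0.21 with it and -0.32 without it. These are descriptions of libraries that share a scaling, and the part of transcript length or RNA quality in the levels of RBFOX2, QKI and CELF2 was not tested.

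**Figure D4:**
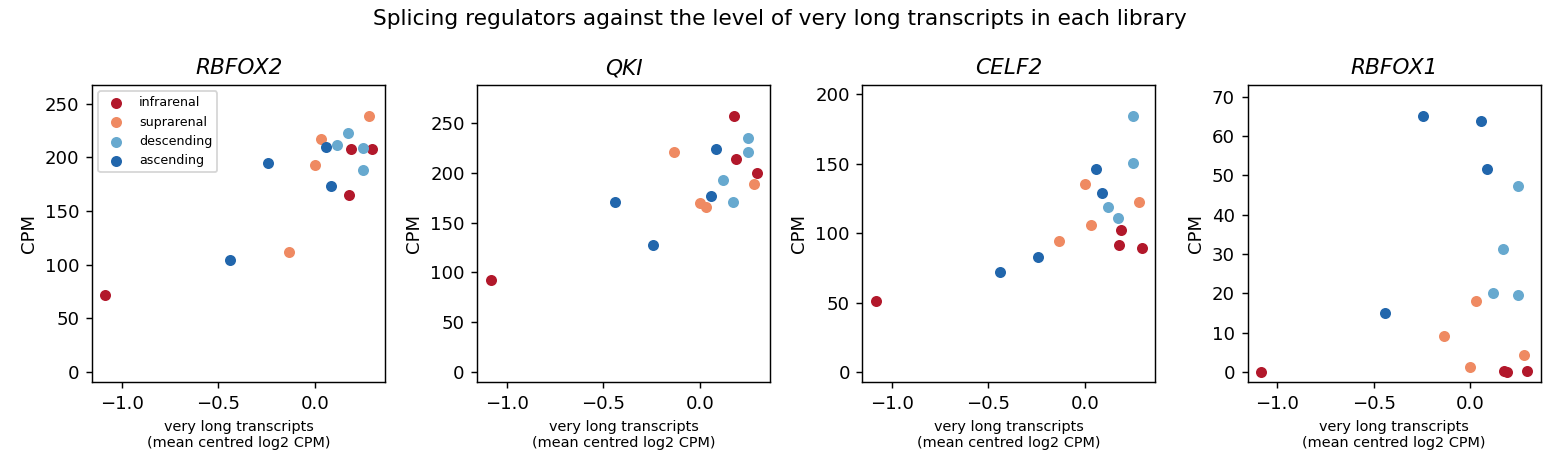
Level of RBFOX2, QKI, CELF2 and RBFOX1 (vertical axis, CPM) against the mean centred log2 CPM of 20 genes with very long transcripts (horizontal axis), 1 point a library, coloured by region. Infrarenal replicate 1, at the far left, has the lowest RBFOX2, QKI and CELF2 levels, whereas RBFOX1 is near 0 in all 4 infrarenal libraries wherever they lie on the horizontal axis.

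RBFOX1 is also a gene of neurons and striated muscle, and markers of those cells were read beside it. The summed level of 18 neuronal markers, of which 6 passed the filter, had its highest median in the infrarenal region. Library sums there, 34.2 to 62.9 CPM, overlapped with those of the suprarenal (29.4 to 46.1), descending (25.1 to 34.4) and ascending (23.4 to 48.5) libraries. UCHL1, a ubiquitin hydrolase of neurons, gave much of this, with means of 31.4 CPM (infrarenal), 18.5 (suprarenal), 17.4 (descending) and 20.7 CPM (ascending). TUBB3, NEFL and DBH were highest in infrarenal replicate 3, at 3.01, 3.21 and 3.41 CPM, and at or below 0.241 CPM in the other infrarenal libraries. The medians of the sum were 54.5 CPM (infrarenal), 32.2 (suprarenal), 28.5 (descending) and 33.5 CPM (ascending), and CHAT was at 0 in all 16 libraries. Of the 6 tested, 3 were higher and 3 lower in the infrarenal region than in the rest, with a median log2 difference of 0.0070, and their part in the level of RBFOX1 was not tested. The 15 Schwann cell markers summed to 503 to 639 CPM in infrarenal libraries, against 592 to 901 in suprarenal, 590 to 780 in descending and 535 to 806 CPM in ascending libraries. The part of Schwann cells in the level of RBFOX1 was not tested.

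The summed level of heart muscle markers had its lowest range in the infrarenal and its highest in the ascending libraries. The 14 that had a row summed to 127 to 344 CPM in infrarenal, 181 to 451 in suprarenal, 201 to 539 in descending and 325 to 590 CPM in ascending libraries. ACTN2, a Z-disc protein, gave much of this, with means of 101 CPM (infrarenal), 199 (suprarenal), 246 (descending) and 286 CPM (ascending). RYR2, also a large part of the sum, had its highest mean in the infrarenal region, with 96.4, 73.5, 81.0 and 74.5 CPM in the same order. Of the 6 heart markers tested, 1 was higher and 5 were lower in the infrarenal region than in the rest. Of the defining heart markers, NKX2-5 was at 0 in the infrarenal, suprarenal and descending libraries, and TNNI3, cardiac troponin I, was under 1 CPM in all 12 of them. MYH6, the atrial myosin heavy chain, had means in the order of RBFOX1 at low levels, 0.0164 CPM (infrarenal), 0.21 (suprarenal), 0.494 (descending) and 1.99 CPM (ascending). MYH6 was the 1 of the 6 tested heart markers that edgeR called for any difference among the regions (adjusted p = 0.0417, 16.7%, against 2.02% of all genes). Over ascending replicates 1 to 4, TNNI3 stood at 74.9, 0.123, 0 and 0.483 CPM, MYH6 at 5.83, 1.17, 0.726 and 0.241 CPM, and RBFOX1 at 65.2, 63.9, 51.6 and 14.97 CPM. The part of heart muscle cells in the level of RBFOX1 was not tested. The 11 skeletal muscle markers with a row summed to a median of 82.6 CPM (infrarenal), 80.6 (suprarenal), 92.0 (descending) and 109.9 CPM (ascending). The 9 tested were split, with 4 higher and 5 lower in the infrarenal region than in the rest and a median log2 difference of -0.33. ACTA1, TNNI2 and TNNC2 had their highest means in the infrarenal region. For the infrarenal region against the rest, edgeR called 2 of the 9 tested, both lower (22.2%, against 2.98% of all genes). CASQ1, calsequestrin of skeletal muscle, had a log2 difference of -2.03 and ACTN3, a Z-disc actinin, of -1.15. These genes were named after their values were seen, and their part in the level of RBFOX1 was not tested.

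Among 12442 named genes that averaged 1 or more on the log2 CPM scale, the median Pearson r with RBFOX1 over the 16 libraries was -0.005, and 90% of genes lay between -0.54 and 0.62. The 5 most like RBFOX1 were ATP1B1 (r 0.96), a subunit of the sodium pump, C8H8orf34 (0.95), the neuroligin NLGN4X (0.95), PLEKHG5 (0.95) and CLDN11 (0.94), a claudin of tight junctions. The 5 most opposed were COL8A1 (-0.95), a chain of type VIII collagen, KCNAB1 (-0.94), a subunit of voltage-gated potassium channels, XK (-0.93), OLFML2A (-0.92) and the sphingosine-1-phosphate receptor S1PR3 (-0.92). The picks depend on the measure. By Spearman correlation, which uses ranks, the 5 most like held places 10, 38, 122, 36 and 2 in the same order. The 5 most opposed held places 8, 17, 21, 25 and 25 on their side. All were picked for this likeness in libraries that share regions and scaling, so their levels are a description.

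ATP1B1 averaged 14.3 ± 4.88 CPM (infrarenal), 38.0 ± 13.6 (suprarenal), 64.3 ± 1.21 (descending) and 106 ± 26.9 CPM (ascending), and COL8A1 averaged 603 ± 128, 129 ± 84.5, 55.2 ± 10.9 and 41.2 ± 25.6 CPM in the same order (SD, n = 4 each).

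**Figure D5:**
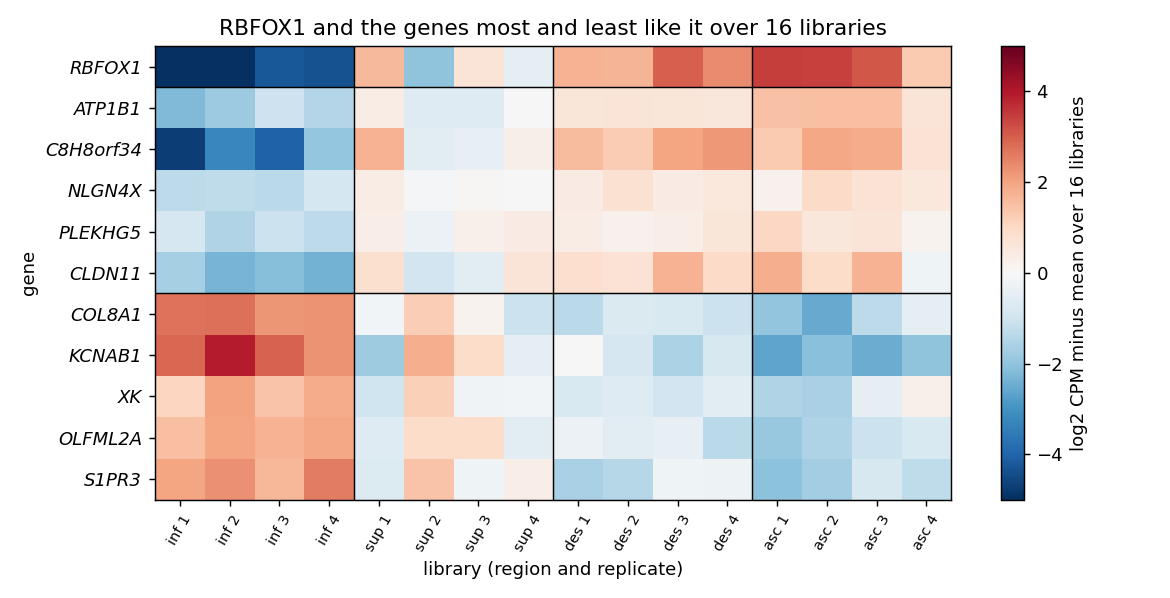
Level of RBFOX1 and of the 5 genes most like and 5 most opposed to it (rows) in each library (columns, by region and replicate), as log2 CPM minus the gene's mean over 16 libraries; red is above and blue below that mean, and colours stop at the ends of the scale. ATP1B1 to CLDN11 are low in the 4 infrarenal libraries and COL8A1 to S1PR3 are high there.

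Beside these regulators, 76 other splicing regulators were listed, of which 75 had a row and 67 were tested. The list was drawn up with earlier results of these data known, so its calls are not independent tests. For the infrarenal region against the rest, edgeR's quasi-likelihood F test with Benjamini-Hochberg adjustment over all genes called 3 of the 67 (4.48%, against 2.98% of all genes), 1 higher and 2 lower, and their median log2 difference was -0.02. SRRM3, which promotes neural microexons, fell in the infrarenal region (log2 difference -1.19, SE 0.21, adjusted p = 0.00513). SRRM3 stood at 2.24, 3.25, 2.16 and 3.45 CPM in the infrarenal libraries, all below the 4.31 CPM or more of the other 12. Its means were 2.78 ± 0.67 CPM (infrarenal), 4.83 ± 0.547 (suprarenal), 6.25 ± 0.749 (descending) and 8.44 ± 2.28 CPM (ascending; SD, n = 4 each), the same order as RBFOX1.

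RBM38, an RNA-binding protein with a role in muscle and red cell splicing, rose in the infrarenal region (log2 difference 1.01, SE 0.25, edgeR adjusted p = 0.0368). RBM24, which promotes heart and skeletal muscle exons, fell there (log2 difference -1.24, SE 0.32, edgeR adjusted p = 0.0497). RBM24 averaged 6.26 ± 1.52 CPM (infrarenal), 11.2 ± 5.05 (suprarenal), 11.01 ± 4.10 (descending) and 26.2 ± 11.8 CPM (ascending; SD, n = 4 each), and its highest library, 42.5 CPM, was ascending replicate 1, where TNNI3 was also highest; the part of heart muscle cells in this was not tested. Of 23 alternative settings the call of RBM38 was lost in 12 and that of RBM24 in 16, both also without infrarenal replicate 1, where RBM38 differed by 0.72. SRRM3 kept its call in all 23. For any difference among the regions 2 of the 67 were called (2.99%, against 2.02% of all genes), SRRM3 (edgeR adjusted p = 0.0101) and RBM24 (0.0222), and for the 3 neighbouring pairs edgeR and DESeq2 each called 0, with 4, 0 and 5 of the 67 at an unadjusted edgeR p under 0.05 from infrarenal to ascending, against 918, 264 and 1074 of all 15926 genes.

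Genes whose transcripts carry muscle-regulated exons were read as gene totals, from a list also drawn up with earlier results of these data known. Of 47 listed, 45 had a row and all 45 were tested, and edgeR called 3 of them (6.67%, against 2.98% of all genes) for the infrarenal region against the rest. SORBS2, an adapter of actin and adhesion sites, rose in the infrarenal region (log2 difference 3.10, SE 0.59, edgeR adjusted p = 0.0072), and this call held in all 23 alternatives. SORBS2 averaged 369 ± 125 CPM (infrarenal), 79.5 ± 58.3 (suprarenal), 22.3 ± 12.6 (descending) and 44.8 ± 51.4 CPM (ascending; SD, n = 4 each). Over suprarenal replicates 1 to 4, SORBS2 stood at 6.25, 147, 70.1 and 95.02 CPM and RBFOX1 at 18.2, 1.39, 9.20 and 4.31 CPM. Over descending replicates 1 to 4, SORBS2 stood at 12.8, 10.7, 36.7 and 28.8 CPM and RBFOX1 at 20.2, 19.6, 47.3 and 31.2 CPM. Ascending replicates 1 to 4 held SORBS2 at 10.8, 9.56, 39.95 and 119 CPM and RBFOX1 at 65.2, 63.9, 51.6 and 14.97 CPM. The order of the libraries was thus opposite in the suprarenal and the same in the descending region. In the ascending region the order was also opposite, except that replicate 1 was slightly above replicate 2 for both genes. A link between these genes was not tested.

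CAMK2D, a calmodulin-dependent kinase whose transcript is a known target of muscle splicing factors, fell by 0.43 on the log2 scale in the infrarenal region (SE 0.11, edgeR adjusted p = 0.0402), and ITGA7, a laminin receptor of muscle, rose by 0.59 (SE 0.15, edgeR adjusted p = 0.0464). These calls were lost in 14 and 17 of the 23 alternatives, both also without infrarenal replicate 1. For any difference among the regions edgeR called SORBS2 alone (adjusted p = 0.0384, 2.22% of the 45, against 2.02% of all genes), a call lost in 12 of the 23 alternatives, and for the 3 neighbouring pairs edgeR and DESeq2 each called 0 of the 45, with 5, 1 and 1 at an unadjusted edgeR p under 0.05, against 918, 264 and 1074 of all 15926 genes. The median log2 difference of the 45 genes between the infrarenal region and the rest was 0.02, close to the 0.03 of all genes tested.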

How the data were processed

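Raw counts per NCBI GeneID were deposited by the authors, who per the submitters' processing notes used fastp, HISAT2 (2.0.5) and featureCounts (1.5.0-p3). Genome build, annotation and strand setting were not given in the sources used here. Per the labels' protocols, total RNA was extracted with a fibrous tissue kit and libraries made with a NEBNext Ultra kit. Symbols came from RefSeq's gene table for assembly MFA8v1.1 (telomere to telomere), which served for naming alone; 24609 of 32846 rows matched.

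Genes were kept with filterByExpr (minimum count 10, minimum total 15), leaving 99.9% of the counts. Scaling with TMM and a quasi-likelihood F test (edgeR 4.0.16, R 4.3.3) were run with a mean per region over all 16 libraries (12 residual degrees of freedom), and adjusted p-values under 0.05 were called. SE and 95% intervals come from the F statistic. Log2 CPM used a prior count of 2. Intervals of summed counts are exact (Clopper-Pearson). DESeq2 1.42.0 was an alternative. The scripts were tested on simulated data.

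The 10 genes, the lists and the tests were chosen with earlier results of these data known. By the rule used, all 10 genes are given, up to 4 called genes of each list in each contrast, and the 5 genes most and 5 least correlated with RBFOX1. Counts of same-region libraries differed by a chi-square of at least 28.2 per degree of freedom, so none repeated another. At these depths the 6 infrarenal RBFOX1 counts limit its fold differences.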

Additional observations from a re-analysis of the deposited data

Results flagged for a closer look

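Each region's 4 libraries were screened, gene by gene, for a value whose gap to its nearest neighbour takes up more of the region's range than Dixon's 95% critical value for 4 libraries allows. Of 40 groups of values (10 genes in 4 regions), the 4 of RBFOX3 held only 0 and could not meet this bound. Of the others 1 met it, and chance gives about 1 in 20. It was PTBP2 in ascending replicate 2, at 64.9 CPM, against 45.5, 44.6 and 43.8 CPM in ascending replicates 1, 3 and 4, a gap of 0.918 of the range.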

How the results depend on the processing

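Each result was recomputed under 23 alternatives (other scalings, filters and tool, a replicate block, each library left out, and infrarenal replicate 1, suprarenal replicate 3 and ascending replicate 4 left out together). No direction of a called result was reversed, and 826 of 828 values of the splicing regulators moved by less than 1 SD. That bound is wide beside some differences. RBPMS2 stayed within it for infrarenal against the rest, although its log2 difference of 0.58 (SE 0.20) ran from 0.24 to 0.72. Of the 9 named results from the lists, 3 kept their call in all. For any difference the 322 genes became 825 with DESeq2, 532 with the replicate block, 1128 without the 3 libraries and 213 to 477 with 1 left out; the 2 other splicing regulators became 5 without the 3 libraries and 1 to 2 with 1 left out, and the 1 muscle exon gene became 0 with library totals, 4 with DESeq2, 2 with the block, 6 without the 3 and 0 to 1 with 1 left out. For infrarenal against the other 3 regions the 474 genes became 852 with DESeq2, 1607 without the 3 and 267 to 568 with 1 left out, the 3 splicing regulators 1 with totals, 6 without the 3 and 1 to 3 with 1 left out, and the 3 muscle exon genes 1 with totals, 1 with no filter, 8 without the 3 and 1 to 3 with 1 left out. For infrarenal against suprarenal the 32 genes became 52 with totals, 51 with no filter, 167 with DESeq2, 84 with the block, 241 without the 3 and 3 to 52 with 1 left out, and each list had 1 call without the 3. For descending against ascending the 18 genes became 177 with DESeq2, 62 with the block, 141 without the 3 and 7 to 34 with 1 left out. The cause was not tested.

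Same-numbered libraries correlated above 0.1 in 19 of 24 pairs (lowest -0.17), and 15 of 16 libraries were closest to their own number. The median r was 0.34 for pairs of the same number and -0.09 for pairs of other numbers. Not all same-numbered pairs lay above 0.1, and the main fit did not pair libraries by number, though the numbers hint at a shared source. The replicate block was run as an alternative only.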
